A study of Mus musculus with 60 samples.

Results

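Respiratory complex I is built from proteins of both genomes of the cell, and the genes of its nuclear subunits and assembly factors carry symbols that start with Nduf. Every probe set whose gene symbol in the probe-to-gene table of the array starts with Nduf was taken, which gave 96 of 45101 probe sets. Of these, 88 named 1 gene each and covered 44 of the 18193 genes with a probe set of their own, and 8 named several genes and were kept out of the gene tests. The genes were followed on 60 Affymetrix Mouse Genome 430 2.0 arrays of heart, gastrocnemius muscle and neocortex, with 5 arrays, labelled as biological replicates, in each of 4 groups of every tissue. Old CR mice (30 months) had received a calorie restricted diet since 14 months of age. Old resveratrol mice (30 months) had received the control diet with added resveratrol, at 4.9 mg per kg of body weight, from the same age. Old control mice (30 months) and young control mice (5 months) had received the AIN-93M control diet alone. The labels give the restriction as 40%, whereas the weekly energy allowances in the methods of the study amount to a smaller one, and the control allowance was itself below free intake. All mice were male C57BL/6×C3H/He F1 hybrids housed singly, so females and other strains were not covered.

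Complex I, or NADH:ubiquinone oxidoreductase, is the entry point for electrons from NADH into the mitochondrial respiratory chain. Its matrix arm takes electrons from NADH through a flavin and a chain of iron-sulfur clusters to ubiquinone, and its membrane arm pumps protons. The core subunits do the chemistry, accessory subunits stabilize the complex, and assembly factors help to build it without staying in the finished enzyme. Heart muscle is dense in mitochondria and relies on the pathway continuously. Among the 44 genes, 6 encode core subunits, 8 accessory subunits of the matrix arm and 19 accessory subunits of the membrane arm. Ndufab1, the mitochondrial acyl carrier protein, also has a place in fatty acid synthesis, and 8 genes encode assembly factors. The other 2 genes carry the name without belonging to the complex: Ndufa4 is now counted as a subunit of complex IV, and Ndufa4l2 is its hypoxia-inducible relative. For brevity all 44 are called complex I genes below, and the counts include these 2.

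The promoters of a few of these genes hold letters bound by factors of mitochondrial gene control, and those of 5 genes that are described further on are shown with their motif in capitals. The sequences are from RefSeq (build GRCm38.p6), cover 150 bases before the annotated start of each gene, and run 5′ to 3′ along the gene.
Ndufa8 (chr2:36049339-36049488, minus strand): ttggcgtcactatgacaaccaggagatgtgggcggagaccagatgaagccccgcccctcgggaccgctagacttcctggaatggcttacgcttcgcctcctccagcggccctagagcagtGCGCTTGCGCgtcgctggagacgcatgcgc
Ndufa5 (chr6:24527691-24527840, minus strand): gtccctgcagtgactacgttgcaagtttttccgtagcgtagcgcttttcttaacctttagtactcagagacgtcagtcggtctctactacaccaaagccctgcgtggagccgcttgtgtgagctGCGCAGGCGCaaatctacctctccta
Ndufaf4 (chr4:24897933-24898082, plus strand): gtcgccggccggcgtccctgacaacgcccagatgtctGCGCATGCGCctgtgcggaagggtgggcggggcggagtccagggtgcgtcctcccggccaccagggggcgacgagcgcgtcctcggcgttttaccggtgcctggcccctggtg
Ndufa10 (chr1:92473759-92473908, minus strand): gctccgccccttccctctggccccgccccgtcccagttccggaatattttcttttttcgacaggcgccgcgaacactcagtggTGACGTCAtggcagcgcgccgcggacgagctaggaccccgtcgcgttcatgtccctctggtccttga
Ndufb2 (chr6:39592415-39592564, plus strand): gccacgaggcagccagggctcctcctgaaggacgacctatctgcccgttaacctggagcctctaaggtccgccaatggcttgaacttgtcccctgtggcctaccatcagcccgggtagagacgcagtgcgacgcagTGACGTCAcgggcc
The capitals in the first 3 mark the motif of nuclear respiratory factor 1 (the letters GCGCA and GCGC with any base between them), and those in Ndufa10 and Ndufb2 mark the cAMP response element (TGACGTCA), each searched on both strands. Over the whole 300-base RefSeq window of each promoter, the first motif was present in 8 of 41 entries of complex I genes (19.5%), in the 7 genes Ndufa5, Ndufa6, Ndufa8, Ndufaf4, Ndufaf5, Ndufb4 and Ndufs5, against 4.6% of all 32851 entries. The second was present in 2 of the 41 entries (4.9%), against 1.79% of all entries. The 41 entries covered 39 of the 44 genes. The 5 genes shown did not change in 1 direction. With CR, Ndufa8 rose in neocortex, Ndufa5 in neocortex and muscle, and Ndufb2 in muscle. Ndufaf4 was lower with CR in heart than in old controls or with resveratrol. Ndufa10 fell with both diets in neocortex and with resveratrol in muscle. A match is a description of the letters in the window and not of a bound site.

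Signals are given as log2 values after each array was scaled to the trimmed mean of its tissue, and a change is a difference of group means on this scale. Calls are limma calls at an adjusted p of 0.05. The tissues matched their labels, since the mean log2 signal of Myh6, the cardiac myosin heavy chain, was 16.36 in heart, that of Myh4, a fast skeletal myosin, was 15.82 in muscle, and that of Snap25, a synaptic protein of neurons, was 14.54 in neocortex. Array controls moved with the diets in every tissue. In muscle, the poly-A spike-ins, bacterial RNAs added during labelling, lay between 9.16 and 10.61 on old CR arrays and between 9.84 and 10.29 on old resveratrol arrays, against 6.40 to 7.19 on old control arrays and 6.74 to 8.10 on young control arrays. In heart, the 3′ minus 5′ difference of the beta-actin probe sets, which grows as RNA breaks down or is copied less completely, was 0.66 to 0.89 with CR and 0.68 to 0.95 with resveratrol, against 1.26 to 1.66 in old controls, which in turn lay above the 0.61 to 0.87 of young controls. In neocortex it was 0.66 to 0.77 with CR and 0.76 to 1.01 with resveratrol, against 0.45 to 0.60 in old controls, and the spike-ins with resveratrol were 9.46 to 10.04 there against 8.49 to 9.25. The 3′ minus 5′ difference of GAPDH was -0.30 to -0.23 with each diet in muscle, against -0.22 to 3.23 in old controls. In heart it was -0.28 to -0.25 with CR and -0.27 to -0.17 with resveratrol, against -0.08 to 0.25 in old controls and -0.28 to -0.14 in young controls. None of these diet groups overlapped the old controls. Each p was 0.00794 by the exact permutation test (two-sided, 5 arrays a group), the lowest it can return, and 0.0412 after adjustment for 192 tests. Their part in the results that follow was not tested, and in muscle the spike-in difference and the diets cannot be told apart.

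**Figure D1:**
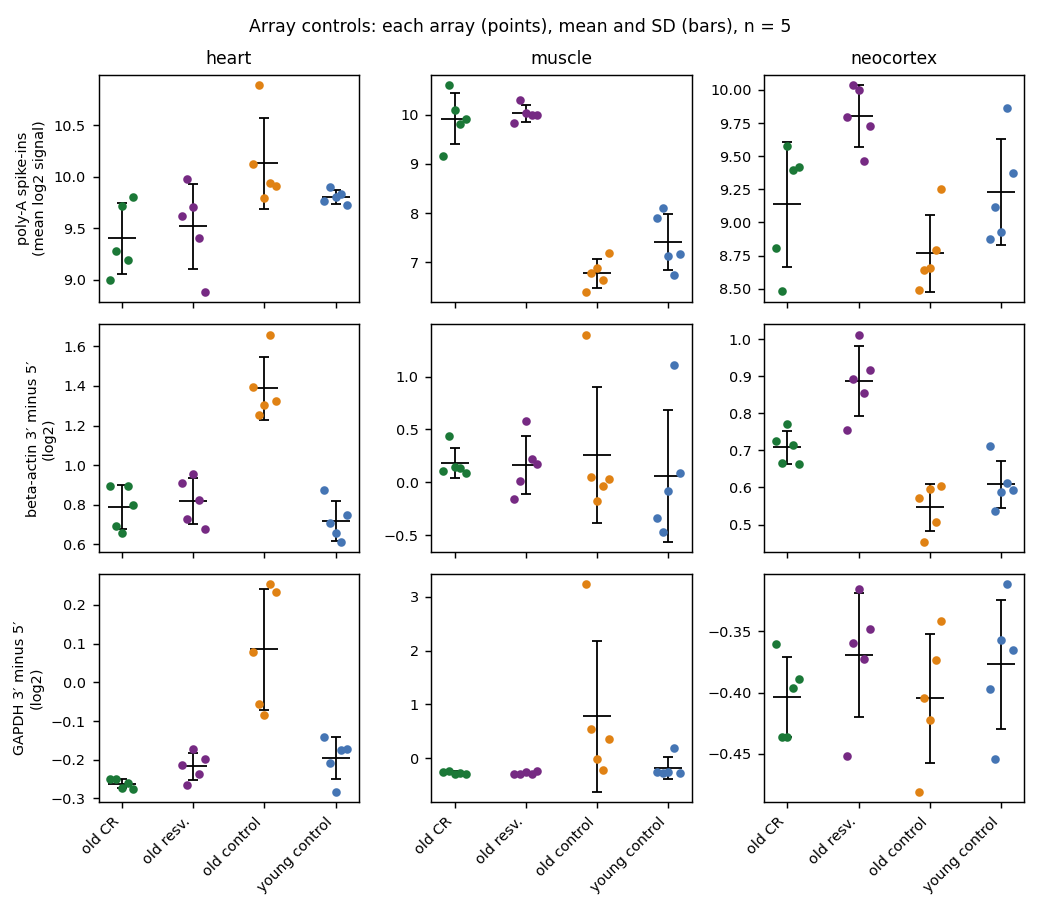
Array controls of each array (points) with the mean and SD (bars) of the 5 arrays of a group, by tissue: mean log2 signal of the poly-A spike-ins (top), and the log2 difference of 3′ minus 5′ probe sets of beta-actin (middle) and GAPDH (bottom). The muscle spike-ins of both diet groups lie above 9.1 and those of the 2 control groups below 8.2, and 1 old control muscle array has a GAPDH difference of 3.23.

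Complex I genes had higher signals in heart than in muscle, and in muscle than in neocortex. Against neocortex, 41 of the 44 genes were higher in heart and 1 was lower, with a median difference of 1.94, where 44.1% of all 15035 genes compared were higher and 41.0% lower (median 0.06). Muscle was higher than neocortex for 40 genes and lower for 2 (45.1% and 41.2% of all genes; medians 1.46 and 0.09). Heart was higher than muscle for 38 genes and lower for 2 (38.1% and 32.7% of all genes; medians 0.47 and 0.06). In heart against neocortex, the only lower gene was Ndufb4, a subunit of the membrane arm with a dim probe set, by -0.77. Its mean heart signal of 5.80 lay below the signal cutoff for testing in heart (5.92). It was compared because it passed in the other tissues, a choice that favors a lower value in heart. Ndufb10, an accessory subunit of the membrane arm, was higher in heart than in neocortex by 3.03 (8.16-fold), whereas Ndufaf7, a methyltransferase known from human cells to act on a core subunit, differed by -0.07 and Ndufaf5, a hydroxylase known from human cells, by 0.04. Ndufaf5 and Ndufaf6, another assembly factor, had lower signals in heart than in muscle, with differences of -0.75 and -0.57, whereas Ndufaf3 was higher there by 1.14. In muscle against neocortex, Ndufaf3 differed by -0.57 and Ndufaf7 by -0.51, whereas Ndufaf6 was higher by 1.99. Outside the complex, Ndufa4 was higher in heart than in muscle by 1.47 and Ndufa4l2 by 2.11. The arrays of all tissues had been scaled to a common trimmed mean, so these are levels relative to the other RNAs of the tissue. Fewer cells of a type and less RNA per cell cannot be told apart here or in the results that follow.

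**Figure D2:**
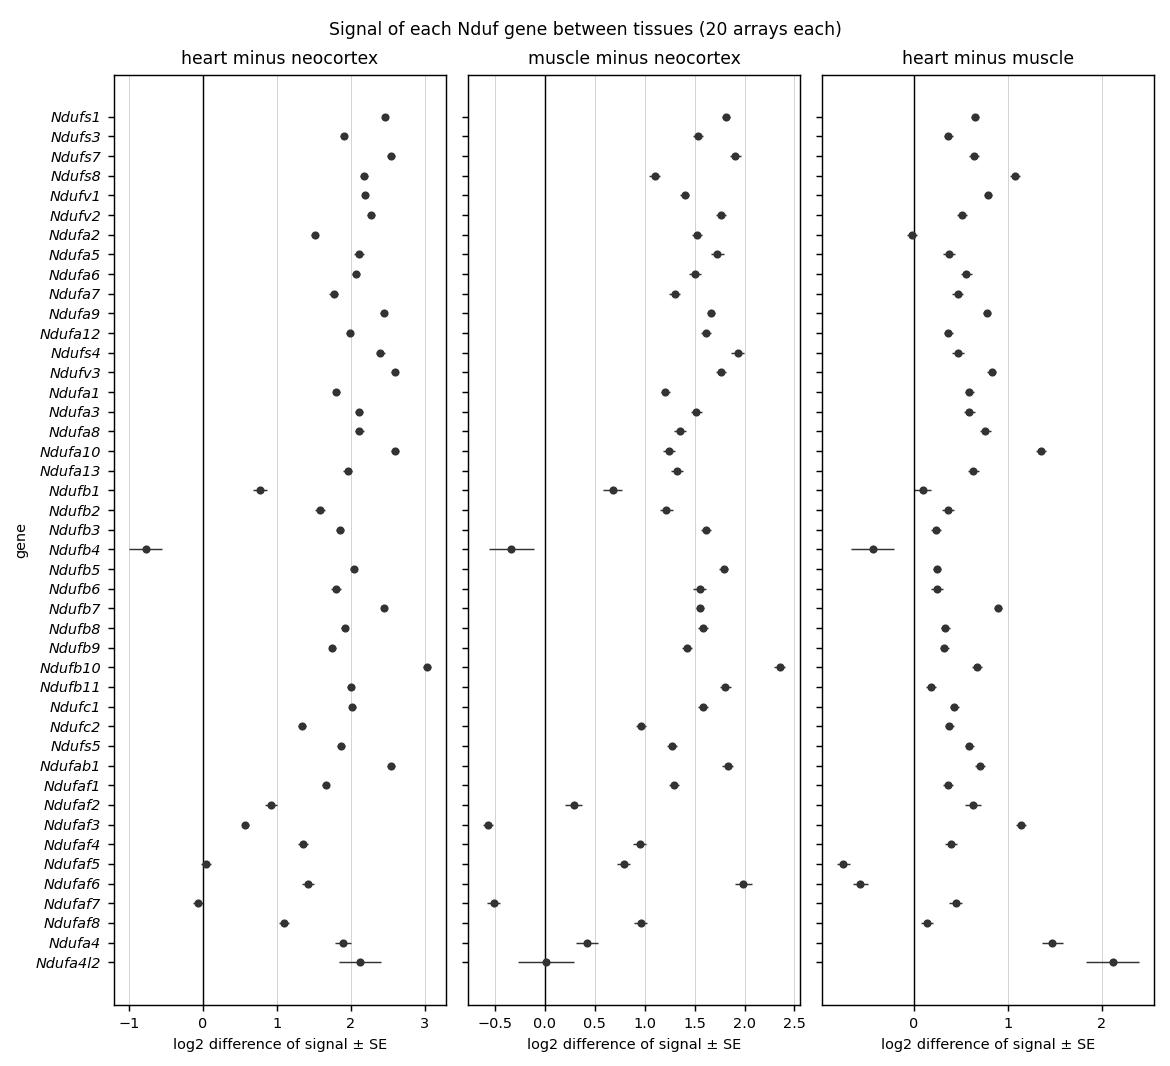
Difference of log2 signal between 2 tissues for each Nduf gene, over all 20 arrays of each tissue (points, with the standard error as bars); the line marks 0. Nearly all subunits lie to the right of 0 in all 3 panels, while Ndufaf3 and Ndufaf7 lie left of it in muscle minus neocortex and Ndufaf5 and Ndufaf6 in heart minus muscle.

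More complex I genes were called in neocortex with CR than in any other of the diet or age comparisons within a tissue. Of 44 genes tested, 22 were higher and 2 lower in old CR than in old control mice, against 13.1% higher and 17.5% lower among all 13057 genes, and the median change was 0.18 for complex I genes and -0.03 for all genes. The groups of 5 did not overlap for 16 genes, all higher (8.33% of all genes did so in that direction). The genes that rose were 4 of 6 core subunits, 5 of 8 accessory subunits of the matrix arm, 8 of 19 of the membrane arm, 4 of 8 assembly factors and Ndufa4, while Ndufab1 changed by -0.09 (adjusted p = 0.33). Quantile normalization lost 8 of the 24 calls (Ndufa4, Ndufa5, Ndufb3, Ndufb5, Ndufb6, Ndufb9, Ndufs3 and Ndufs7), and averaging the probe sets of each gene lost 5 (Ndufa12, Ndufb9, Ndufs3, Ndufs4 and Ndufs7). The mean signal of the complex I genes was 12.06 ± 0.04 in old CR mice and 11.92 ± 0.06 in old control mice (SD, n = 5 each). The changes were small, between 0.19 and 0.54 for the genes that rose. With each array left out in turn, between 19 and 24 genes were called. Astrocyte markers moved in the same comparison: 2 of 3 (Gfap, Aqp4 and Slc1a3) were called lower, and the log2 of their summed signal was 12.34 to 12.63 with CR against 12.69 to 13.30 in old controls, with none at 0. Of 6 neuron markers 1 was called lower, and they summed to signals of 76912 to 90195 with CR and 77361 to 92241 in old controls. Of 3 fibroblast markers 1 was called higher. The part of these markers was not tested.

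**Figure D3:**
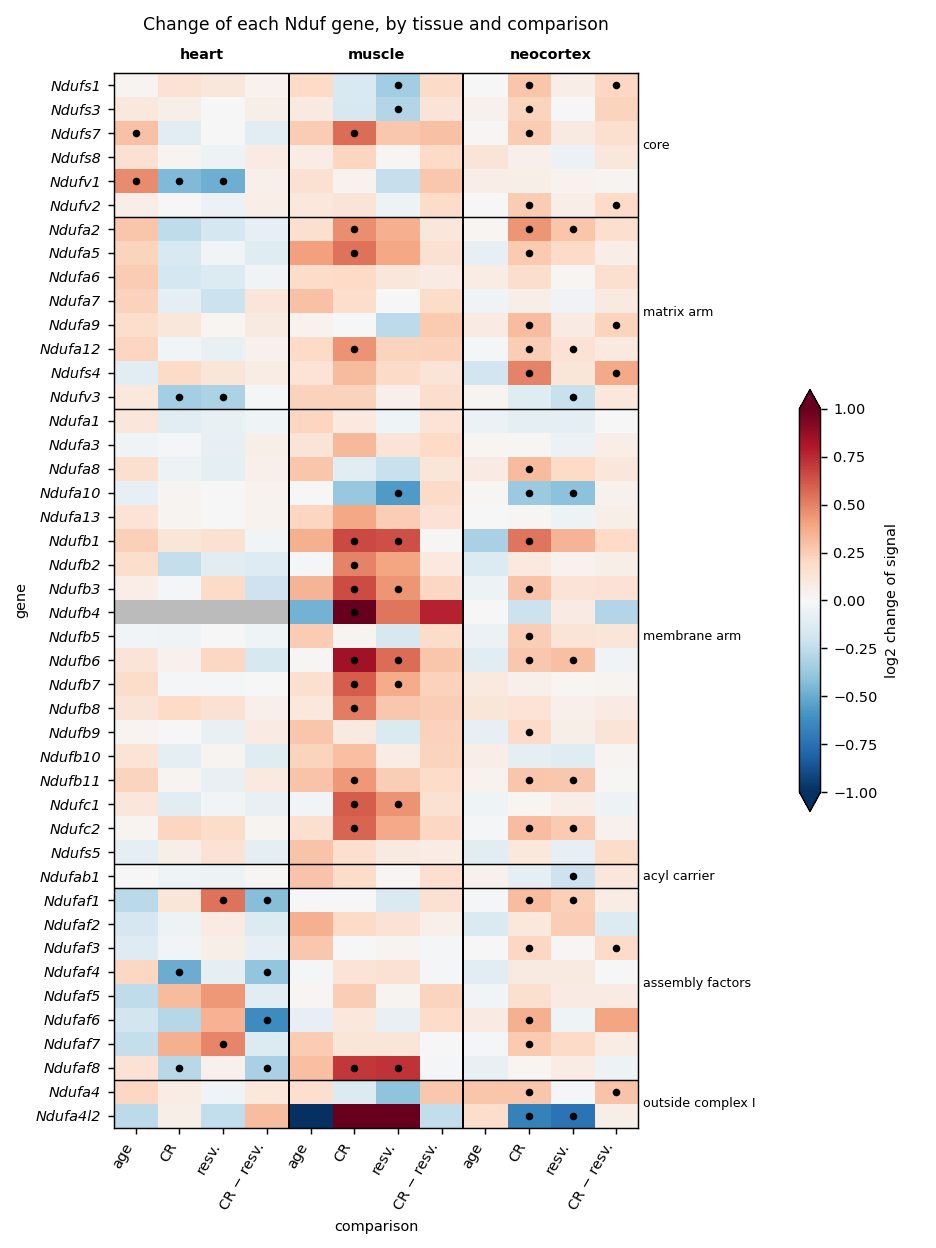
Change of log2 signal (color, from -1 to 1, larger changes at the end of the scale) of each Nduf gene (rows, by role) for 4 comparisons in each tissue (columns): age is old control minus young control, CR and resv. are each diet minus old control, and CR − resv. is the direct comparison. Dots mark an adjusted p under 0.05 and gray a gene below the signal cutoff; 22 of the dots are rises with CR in neocortex.

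**Figure D4:**
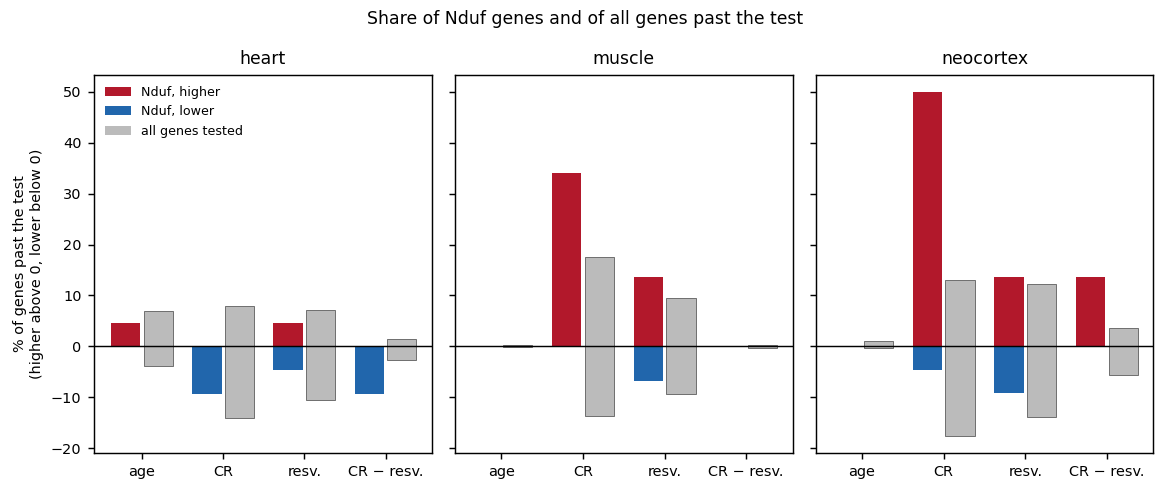
Percentage of Nduf genes called higher (red, above 0) and lower (blue, below 0) and of all genes tested (gray) in each comparison and tissue. In neocortex with CR, 50% of the Nduf genes were called higher and 13.1% of all genes.

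Among core subunits, Ndufs1, the largest subunit and a carrier of iron-sulfur clusters, had log2 signals of 12.11, 12.25, 12.06, 12.16 and 12.09 in neocortex of old CR mice against 11.79, 11.80, 11.89, 11.88 and 11.91 in old control mice. Every CR array lay above every old control array (change 0.28, SE 0.06, 1.21-fold, adjusted p = 0.00148). Ndufv2, which holds an iron-sulfur cluster near the flavin, had 13.26, 13.21, 13.18, 13.38 and 13.14 with CR against 12.94, 13.01, 13.06, 12.93 and 12.94 in old controls. Again no arrays overlapped (0.26, SE 0.06, adjusted p = 0.00206). Ndufs7, the subunit that passes electrons to ubiquinone, rose by 0.25 (adjusted p = 0.0177) and Ndufs3 by 0.22 (adjusted p = 0.0464), both with overlapping groups. The call of Ndufs3 was lost when any of 11 arrays was left out (adjusted p = 0.152 without old CR replicate 2), and that of Ndufs7 without old control replicate 1 (adjusted p = 0.0658). Ndufv1, which binds NADH and the flavin, changed by 0.06, and Ndufs8, also a cluster carrier, was not called.

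In the matrix arm, Ndufs4, an accessory subunit whose loss in mice gives a model of Leigh syndrome, had signals of 11.65, 11.74, 11.58, 11.70 and 11.68 in neocortex of old CR mice against 11.05, 11.11, 11.25, 11.15 and 11.31 in old control mice. The CR arrays lay close together and above all old control arrays (0.50, SE 0.11, 1.41-fold, adjusted p = 0.00108). With the probe sets of the gene averaged the change was 0.34 (adjusted p = 0.102). Ndufa2, a small accessory subunit with a thioredoxin-like fold, had 12.82, 12.74, 12.82, 12.93 and 12.88 with CR against 12.39, 12.22, 12.51, 12.40 and 12.47 in old controls. This was the smallest adjusted p of any complex I gene in the comparison (0.44, SE 0.07, adjusted p = 3.51e-05). Ndufa9, which sits near the ubiquinone site, rose by 0.31 (adjusted p = 0.000831) and Ndufa12 by 0.25 (adjusted p = 0.000599), both without overlap. For Ndufa12 the averaged probe sets changed by 0.02 (adjusted p = 0.92). Ndufa5 rose by 0.26 (adjusted p = 0.0176), a call lost without any of 3 arrays (adjusted p = 0.0567 without old CR replicate 2).

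In the membrane arm, the largest rise was that of Ndufb1, with signals of 9.53, 9.24, 9.19, 9.14 and 9.28 in neocortex of old CR mice against 8.66, 8.58, 8.99, 8.57 and 8.90 in old control mice. It reached 0.54 (SE 0.14, 1.45-fold, adjusted p = 0.00693) with no overlap. Ndufa8 rose by 0.32 (adjusted p = 0.00573), Ndufc2 by 0.31 (adjusted p = 0.000254) and Ndufb11 by 0.28 (adjusted p = 0.000674), none with overlapping groups. Ndufa10, a membrane arm subunit of the nucleoside kinase family, went the other way. Its signals were 12.28, 11.90, 12.16, 12.64 and 12.14 with CR against 12.70, 12.54, 12.68, 12.51 and 12.54 in old controls (-0.37, SE 0.10, adjusted p = 0.00639). Only old CR replicate 4 lay among the old control arrays. Of the assembly factors, Ndufaf6 rose by 0.35, Ndufaf1, known from human cells for its part in building the membrane arm, by 0.31 (adjusted p = 0.00673), Ndufaf7 by 0.26 and Ndufaf3 by 0.21 (adjusted p = 0.0126). The calls of Ndufaf6 (adjusted p = 0.0415) and Ndufaf7 (adjusted p = 0.0263) were lost without any of 9 and 5 arrays (0.0931 without old control replicate 1 and 0.0648 without old CR replicate 2). Outside the complex, Ndufa4 rose by 0.27 (adjusted p = 0.0202, lost without any of 2 arrays, with 0.064 without old control replicate 5), and Ndufa4l2 fell by 0.68 (adjusted p = 0.00807).

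**Figure D5:**
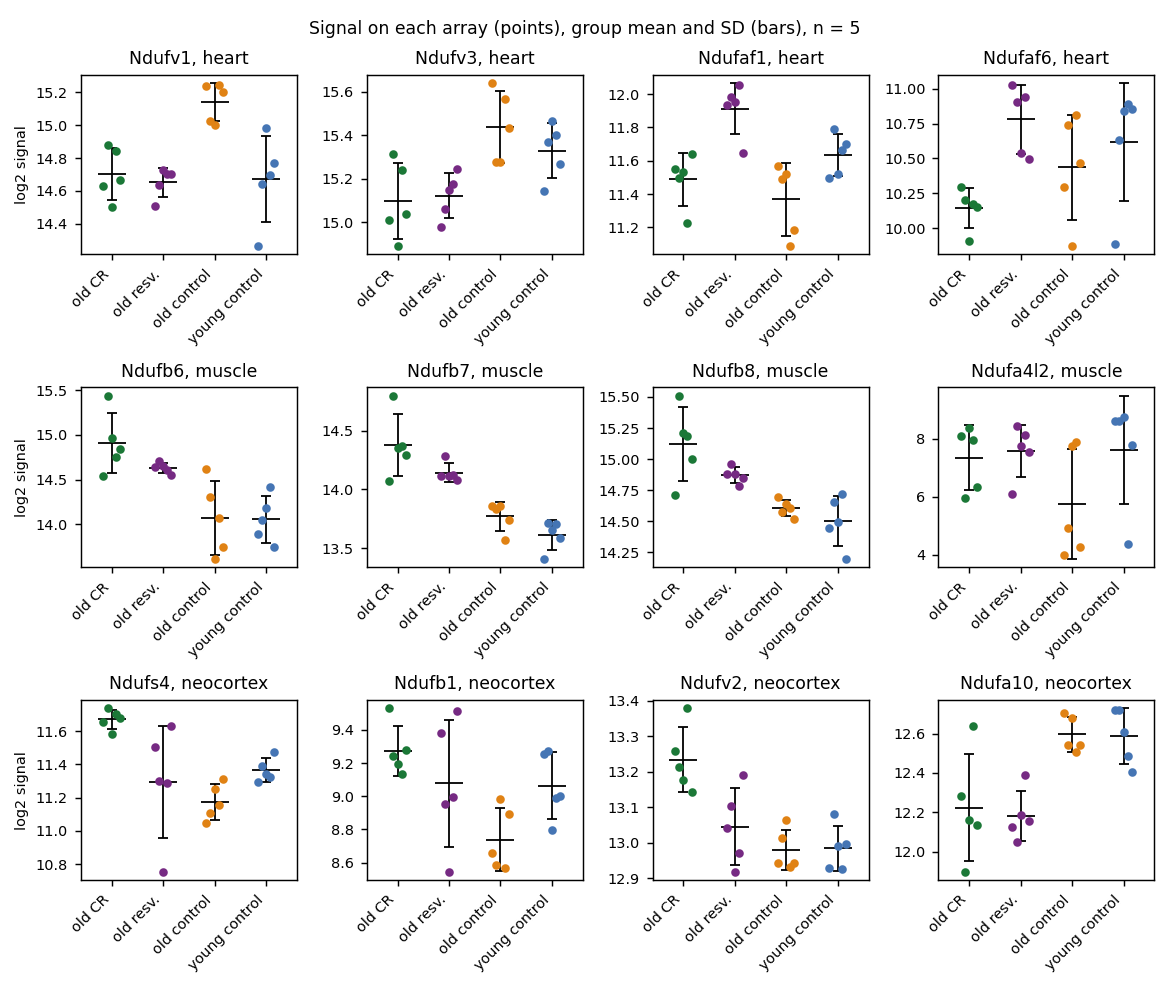
Log2 signal on each array (points) with the mean and SD (bars) of the 5 arrays of a group, for 4 genes in each of heart, muscle and neocortex. Ndufs4 in neocortex lies between 11.58 and 11.74 in old CR mice and between 11.05 and 11.31 in old control mice, while Ndufa4l2 in muscle spreads from 4.0 to 7.88 among old control mice.

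Resveratrol moved fewer complex I genes in neocortex than CR did. Against old controls, 6 genes were higher and 4 lower with resveratrol, where 12.3% of all genes were higher and 13.9% lower, so the shares were near those of all genes, and the median change was 0.07 against -0.01 for all genes. The 2 diets were compared with the same old control arrays, so their values are not independent. Of the cell type markers, 3 of 6 for neurons were lower and 2 of 4 for macrophages higher with resveratrol (summed signals of 74315 to 84659 against 77361 to 92241, and of 5405 to 8151 against 5039 to 5537), and of 3 for astrocytes 1 was higher and 1 lower. Their part was not tested. Ndufa2 had signals of 12.74, 12.72, 12.54, 12.56 and 12.79 with resveratrol and rose by 0.27 (adjusted p = 0.00406) without overlap with the old control values given above. Ndufb11 rose by 0.27 (adjusted p = 0.00119), Ndufc2 by 0.26 (adjusted p = 0.00135) and Ndufb6, a subunit of the membrane arm, by 0.30 (adjusted p = 0.00742). Ndufa10 had 12.13, 12.05, 12.19, 12.39 and 12.16 with resveratrol, all below the old control arrays (-0.41, SE 0.10, adjusted p = 0.00329). Ndufa4l2 was at 6.67, 6.65, 6.81, 6.86 and 6.65 with resveratrol against 7.64, 7.23, 7.90, 6.99 and 7.59 in old controls, and fell by 0.74 (adjusted p = 0.00493) without overlap. Ndufv3, a small accessory subunit of the matrix arm, fell by 0.22 (adjusted p = 0.0387), and this call was lost without any of 6 arrays (adjusted p = 0.107 without old resveratrol replicate 5). Without old control replicate 5 or old resveratrol replicate 4, 6 genes were called in place of 10. Averaging the probe sets of each gene lost 4 of the 10 calls (Ndufa12, Ndufab1, Ndufb11 and Ndufb6).

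In the direct comparison in neocortex, 6 genes were higher with CR than with resveratrol and 0 were lower, against 3.66% and 5.62% of all genes, with medians of 0.09 and -0.02. At an unadjusted p under 0.05, 12 were higher and 0 lower. Of the 3 astrocyte markers 2 were lower with CR than with resveratrol (summed log2 signal 12.34 to 12.63 against 12.69 to 12.93), and their part was not tested. Ndufs4 had 11.65, 11.74, 11.58, 11.70 and 11.68 with CR against 11.51, 11.30, 10.75, 11.29 and 11.63 with resveratrol, a wider group (0.38, SE 0.11, adjusted p = 0.0288). Averaging the probe sets of Ndufs4 turned this difference to -0.0217 (adjusted p = 0.957). Ndufa9 had 12.40, 12.56, 12.53, 12.46 and 12.47 with CR against 12.29, 12.14, 12.25, 12.26 and 12.37 with resveratrol (0.22, adjusted p = 0.0311), without overlap. Ndufa4 differed by 0.29 (adjusted p = 0.0418), Ndufs1 by 0.21 (0.0347), Ndufv2 by 0.19 (0.0446) and the assembly factor Ndufaf3 by 0.19 (0.0493). All 6 calls depended on single arrays, since none of the 6 remained without old CR replicate 2 or without any 1 of old resveratrol replicates 2, 3 and 4, only Ndufa9 remained without old CR replicate 4, and 3 remained without old CR replicate 1. With age, no complex I gene was called in neocortex (limma, 0 of 44; 2 at an unadjusted p under 0.05; 0 by the test of the study's methods after adjustment), against 1.08% higher and 0.383% lower among all genes. The smallest adjusted p was 0.122, in the pair Ndufa4 and Ndufa4l2 outside the complex, and 0.286 among the subunits.

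In gastrocnemius muscle most of the genes that rose with CR were membrane arm subunits. Of 44 genes, 15 were higher with CR and 0 lower (limma; 18 higher and 1 lower at an unadjusted p under 0.05), against 17.5% and 13.6% of all 12831 genes, with a median of 0.22 against 0.10. They were 10 of 19 accessory subunits of the membrane arm, 3 of 8 of the matrix arm, 1 of 6 core subunits and 1 of 8 assembly factors. Among them Ndufb4 reached the signal cutoff only through its CR arrays, so it had to differ; without it 14 of 43 genes were higher, including 9 of 18 of the membrane arm. The groups of 5 did not overlap for 2 genes, both higher (10.0% of all genes). The mean signal of the complex I genes was 13.46 ± 0.26 with CR and 13.15 ± 0.09 in old controls (SD, n = 5 each), so the spread was wider among the CR arrays. The test of the study's methods, with the same adjustment, called 8 genes on log2 signals and 4 on unlogged signals. With each array left out in turn, 11 to 21 genes were called. Averaging the probe sets of each gene lost 4 of the 15 calls (Ndufa5, Ndufb11, Ndufb7 and Ndufs7). Endothelial markers moved in the same comparison, with 2 of 3 (Pecam1, Cdh5 and Kdr) called lower and a summed log2 signal of 9.27 to 10.41 with CR against 10.44 to 11.38 in old controls, and the summed signal of 7 skeletal muscle markers was 345445 to 491534 with CR against 395970 to 524394 in old controls. The brown adipocyte marker that passed the cutoff was called higher by 1.48, and 2 of 5 macrophage markers were higher. The summed signal of the atrial list, of which 2 of 4 genes passed the cutoff and 1 was called higher, was 6342 to 23552 with CR against 3185 to 4068 in old controls. The genes that passed were Sln and Myl4 (mean log2 signals of 11.59 and 9.89 in muscle), while Myl7 and Nppa lay below the cutoff (5.16 and 5.73). Of 6 markers of slow and oxidative fibres, 1 was called lower with CR (median change -0.21). Old CR replicate 2, the array with the highest complex I mean (13.78), had summed signals of 3339 for brown adipocyte and 27556 for adipocyte markers, where old controls reached at most 638.8 and 5988. Without this array 11 complex I genes were called. Their part in the result was not tested.

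Ndufb7, a subunit at the far part of the membrane arm, had signals of 14.07, 14.80, 14.36, 14.37 and 14.29 in muscle of old CR mice, 14.11, 14.28, 14.12, 14.12 and 14.08 in old resveratrol mice and 13.86, 13.84, 13.86, 13.57 and 13.74 in old control mice. Both diet groups lay above every old control array. The changes were 0.60 with CR (SE 0.11, 1.52-fold, adjusted p = 0.000549) and 0.37 with resveratrol (adjusted p = 0.0265, lost without any of 3 arrays, with 0.0759 without old control replicate 4). Both calls were lost when the probe sets of the gene were averaged (changes of 0.29 and 0.12, adjusted p = 0.146 and 0.64). Ndufb8, of the same part of the arm, had 14.71, 15.51, 15.21, 15.18 and 15.00 with CR against 14.70, 14.58, 14.64, 14.60 and 14.52 in old controls. Its groups touched without overlapping, old CR replicate 1 being the lowest of the CR arrays (0.51, SE 0.12, adjusted p = 0.00361). Ndufb6 had 14.54, 15.44, 14.96, 14.76 and 14.84 with CR, 14.64, 14.71, 14.65, 14.61 and 14.55 with resveratrol and 14.61, 14.31, 13.61, 14.07 and 13.74 in old controls. Old control replicate 1 reached the lower diet arrays. The changes of Ndufb6 were 0.84 with CR (SE 0.18, 1.79-fold, adjusted p = 0.00135) and 0.56 with resveratrol (adjusted p = 0.0283, lost without any of 6 arrays, with 0.0887 without old control replicate 3).

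Ndufb3 rose by 0.65 with CR (adjusted p = 0.00167), Ndufc1 by 0.60 (adjusted p = 0.00223) and Ndufc2 by 0.58 (adjusted p = 0.00597), all membrane arm subunits. Ndufb1 rose by 0.66 (adjusted p = 0.0264), lost without any of 4 arrays (adjusted p = 0.0812 without old CR replicate 3), and Ndufb2 by 0.50 (adjusted p = 0.0347), lost without any of 7 (adjusted p = 0.0947 without old CR replicate 2). Ndufb4, another membrane arm subunit, has a dim probe set. Its signals were 6.04, 7.31, 7.07, 7.55 and 6.82 with CR against 5.74, 6.21, 6.42, 4.79 and 5.12 in old controls (1.30, SE 0.38, adjusted p = 0.0146), and old CR replicate 1 lay within the old controls. Its mean was 6.96 with CR and 5.99 over the other 3 groups, with a cutoff for testing at 6.12. Outside the membrane arm, the core subunit Ndufs7 had 14.57, 15.34, 14.96, 14.95 and 14.78 with CR against 14.71, 14.27, 14.37, 14.30 and 14.12 in old controls. It rose by 0.56 (adjusted p = 0.00605), the groups overlapping through old CR replicate 1 and old control replicate 1. In the matrix arm, Ndufa5 rose by 0.55 (adjusted p = 0.0236, lost without any of 3 arrays, with 0.0638 without old CR replicate 2), Ndufa2 by 0.47 (adjusted p = 0.00966) and Ndufa12 by 0.45 (adjusted p = 0.0142). Ndufaf8, an assembly factor known from human cells as the partner of Ndufaf5, had 11.95, 13.19, 12.60, 12.25 and 12.17 with CR and 12.37, 12.50, 12.68, 12.38 and 12.29 with resveratrol against 12, 11.61, 11.66, 11.68 and 11.67 in old controls. It rose by 0.71 with CR (adjusted p = 0.00955) and by 0.72 with resveratrol (adjusted p = 0.0127).

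With resveratrol, 6 complex I genes were higher and 3 lower in muscle than in old controls, against 9.42% and 9.26% of all genes, with a median of 0.12 against 0.07. In the same comparison 2 of 3 endothelial markers were lower (summed log2 signal 9.56 to 10.35 with resveratrol against 10.44 to 11.38 in old controls), 2 of 5 markers of cardiac muscle were lower, and 2 of 5 macrophage markers were higher (summed signal 5764 to 12028 against 4128 to 5721). Of 6 markers of slow and oxidative fibres, 1 was called lower (median change -0.37). The summed signal of the atrial list, of which only Sln and Myl4 passed the cutoff in muscle, was 7541 to 10077 with resveratrol against 3185 to 4068. The part of these markers was not tested. Besides Ndufb6, Ndufb7 and Ndufaf8, the rises were those of Ndufb1 (0.64, adjusted p = 0.0423), Ndufb3 (0.45, adjusted p = 0.0302) and Ndufc1 (0.45, adjusted p = 0.0231), lost without any of 7, 7 and 4 arrays (0.133 without old resveratrol replicate 2, 0.0843 without old control replicate 4 and 0.0637 without old resveratrol replicate 2). The genes that fell were 2 core subunits and Ndufa10. Ndufs1 had 13.62, 13.64, 13.51, 13.70 and 13.44 with resveratrol against 14.14, 14.00, 13.87, 13.79 and 13.83 in old controls (-0.34, SE 0.10, adjusted p = 0.0199). Ndufs3, a core subunit near the ubiquinone site, had 14.04, 14.03, 13.88, 14.01 and 13.90 against 14.49, 14.35, 14.16, 14.25 and 14.09 (-0.30, SE 0.10, adjusted p = 0.0415). Ndufa10 had 12.86, 13.35, 13.25, 13.49 and 13.59 against 13.88, 13.96, 13.90, 13.90 and 13.75 (-0.57, SE 0.15, adjusted p = 0.0125). None of the 3 overlapped the old controls (9.55% of all genes lay wholly below them), and the calls of Ndufs1 and Ndufs3 were lost without any of 2 and 9 arrays (0.0562 without old resveratrol replicate 5 and 0.102 without old control replicate 1). The count of 9 fell to 3 without old control replicate 4 or old resveratrol replicate 2, and to 5 without old control replicate 5, old resveratrol replicate 1 or old resveratrol replicate 5. Averaging the probe sets of each gene lost 5 of the 9 calls (Ndufa10, Ndufb1, Ndufb6, Ndufb7 and Ndufc1).

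Between the 2 diets in muscle no complex I gene was called (limma, 0 of 44; 2 at an unadjusted p under 0.05; 0 by the test of the methods after adjustment and 2 at its unadjusted p of 0.01), against 0.257% higher and 0.304% lower among all genes. Over the 34 subunits the median difference of CR minus resveratrol was 0.18, where the median of all genes was 0.03, and the smallest adjusted p of a complex I gene was 0.188. With age no complex I gene was called either (limma, 0 of 44; 6 at an unadjusted p under 0.05; 0 by the test of the methods after adjustment and 2 at its unadjusted p of 0.01), against 0.257% higher and 0.171% lower among all genes, with medians of 0.18 and 0.03. Without young control replicate 4, 2 genes were called with age. Ndufa4l2 spread widely over the arrays: 8.10, 5.95, 8.38, 7.97 and 6.33 with CR, 6.11, 8.43, 7.74, 8.13 and 7.55 with resveratrol, 4.0, 4.92, 7.74, 7.88 and 4.25 in old controls and 8.60, 8.62, 8.76, 4.38 and 7.77 in young controls. Its differences of 1.59 (CR), 1.83 (resveratrol) and -1.87 (age) did not pass the test (adjusted p = 0.15, 0.131 and 0.323).

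In heart, the complex I genes as a group stayed near all genes, and a few single genes moved. Of 43 genes tested, CR had 0 higher and 4 lower (limma; 4 higher and 6 lower at an unadjusted p under 0.05), against 7.94% and 14.1% of all 13285 genes. Resveratrol had 2 higher and 2 lower (7.08% and 10.5% of all genes), and age had 2 higher and 0 lower (9 higher and 1 lower at an unadjusted p under 0.05), against 7.05% and 3.79%. The median changes were -0.02 with CR, -0.01 with resveratrol and 0.12 with age, where those of all genes were 0.00, 0.01 and 0.03. Ndufb4 lay below the signal cutoff and was not tested. The heart signals of many subunits were between 14 and 16, and the brightest probe set of a heart array was at 16.13 to 16.85. Markers of other cell types moved with both diets: 4 of 5 macrophage markers were called higher with each diet, and the log2 of their summed signal was 13.76 to 14.11 with CR and 13.54 to 14.13 with resveratrol against 13.04 to 13.49 in old controls. Of the 4 fibroblast markers, 2 were higher with CR and 3 with resveratrol (sums of 15.21 to 15.45 and 14.96 to 15.41 against 13.86 to 14.94), and no defining marker of either list was at 0. Of the 4 atrial markers, 2 were higher with CR and 4 with resveratrol (summed signals of 147275 to 188215 and 166028 to 208630 against 72488 to 157839 in old controls). The red blood cell marker was higher with both diets, at summed signals of 5298 to 22183 with CR and 3226 to 7897 with resveratrol against 1703 to 3006. Their part in the results, like that of the beta-actin difference of the heart arrays, was not tested.

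Ndufv1, the core subunit that binds NADH and the flavin, had signals of 14.63, 14.88, 14.50, 14.85 and 14.67 in heart of old CR mice, 14.51, 14.63, 14.73, 14.70 and 14.70 in old resveratrol mice, 15.24, 15.03, 15.00, 15.24 and 15.20 in old control mice and 14.26, 14.64, 14.98, 14.70 and 14.77 in young control mice. All old control arrays lay above all other arrays. Ndufv1 rose with age by 0.47 (SE 0.11, 1.39-fold, adjusted p = 0.0046) and fell with CR by 0.44 (SE 0.11, adjusted p = 0.00371) and with resveratrol by 0.49 (SE 0.11, adjusted p = 0.00187). The call with CR was lost when the probe sets of the gene were averaged (limma, adjusted p = 0.091). The call with age was lost by the test of the study's methods after adjustment, on log2 and on unlogged signals. The call with resveratrol was kept in these settings. The 3 comparisons share the old control arrays, so that a deviation of these arrays enters all of them, and the old controls are also the group whose beta-actin difference stood apart. Ndufs7 was the other gene that rose with age, with 15.25, 15.16, 15.08, 15.39 and 15.32 in old controls against 14.69, 14.94, 15.09, 15.16 and 14.86 in young controls (0.29, SE 0.09, adjusted p = 0.0458). This call was lost without any of 14 of the 20 arrays (adjusted p = 0.123 without old control replicate 4), and 5 genes were called with age without young control replicate 3. Ndufv3, an accessory subunit beside Ndufv1, had 15.01, 15.31, 14.89, 15.24 and 15.04 with CR and 14.98, 15.06, 15.15, 15.18 and 15.24 with resveratrol against 15.64, 15.28, 15.28, 15.56 and 15.43 in old controls. It fell by 0.34 with CR (adjusted p = 0.0125) and by 0.32 with resveratrol (adjusted p = 0.0227, lost without any of 4 arrays, with 0.0768 without old control replicate 1). The number of genes called with CR was 9 without young control replicate 1.

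In the direct comparison of the diets in heart, the called genes were 4 of the 8 Nduf assembly factors. In that comparison 4 genes were lower with CR than with resveratrol and 0 higher (limma; 5 lower and 0 higher at an unadjusted p under 0.05), against 2.57% lower and 1.43% higher among all genes. The 8 differences of the Nduf assembly factors were all below 0 (median -0.23), while 0 of 33 subunits were called (1 at an unadjusted p under 0.05) and their median was 0.03. Of 10 other assembly factors 0 were called (limma; 2 at an unadjusted p under 0.05), with a median of -0.12. Ndufaf1 had 11.55, 11.49, 11.53, 11.22 and 11.64 with CR against 11.93, 11.98, 11.95, 12.05 and 11.65 with resveratrol (-0.43, SE 0.11, adjusted p = 0.0228), without overlap. Against old controls at 11.57, 11.49, 11.52, 11.09 and 11.18, it rose with resveratrol by 0.54 (1.46-fold, adjusted p = 0.000796). Ndufaf6 had 10.30, 10.20, 9.91, 10.18 and 10.15 with CR against 11.02, 10.90, 10.54, 10.94 and 10.49 with resveratrol (-0.63, SE 0.18, adjusted p = 0.0442). The arrays did not overlap, and the old controls spanned both groups, from 9.87 to 10.81.

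Ndufaf8 was at 12.06, 11.95, 11.96, 11.94 and 11.89 with CR against 12.30, 12.35, 12.20, 12.44 and 12.12 with resveratrol and 12.27, 12.24, 12.23, 12.26 and 12.20 in old controls. It fell by 0.28 with CR against old controls (adjusted p = 0.0112) and differed by -0.32 between the diets (adjusted p = 0.0182), without overlap in either. Ndufaf4, known from human cells as a partner of Ndufaf3 in early assembly, had 11.96, 11.75, 11.89, 11.59 and 11.49 with CR against 12.35, 12.27, 11.83, 12.15 and 12.05 with resveratrol and 12.50, 12.38, 12.16, 12.06 and 12.05 in old controls. It fell by 0.50 with CR against old controls (adjusted p = 0.00226) and differed by -0.40 between the diets (adjusted p = 0.0466). Ndufaf7 had 10.04, 9.79, 9.83, 10.05 and 9.64 with resveratrol against 9.59, 9.44, 9.21, 9.15 and 9.53 in old controls and rose by 0.49 (adjusted p = 0.00949), while its change with CR was 0.35 (adjusted p = 0.0522). The differences between the diets were less secure than those from old controls: without old resveratrol replicate 2 or 4 none of the 4 was called, 1 was called without old CR replicate 4, old CR replicate 5 or old resveratrol replicate 1, and 2 without young control replicate 2, old control replicate 5 or old CR replicate 2.

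Differences between tissues in a change were tested in 1 model of all 60 arrays for the 43 complex I genes that passed the cutoff in every tissue, among 11111 genes, with the tissues treated as taken from different mice. This model gives each gene 1 spread over all tissues. With CR, 16 genes changed more negatively and 1 more positively in heart than in muscle (27.5% of all genes differed in either direction). Ndufaf8 differed most, by -0.99 (adjusted p = 5.57e-05), from changes of -0.28 in heart and 0.71 in muscle. The 16 included 8 accessory subunits of the membrane arm and the core subunits Ndufs7 and Ndufv1. Between heart and neocortex, 3 genes changed more negatively in heart with CR (11.3% of all genes, a larger share): Ndufa2 (-0.69), Ndufaf4 (-0.59) and Ndufv1 (-0.50). Between muscle and neocortex, 7 changed more positively and 3 more negatively in muscle (23.0% of all genes), so the share was near that of all genes. The 7 included the membrane arm subunits Ndufb6, Ndufb7, Ndufb8, Ndufb10 and Ndufc1, and the 3 were Ndufs1, Ndufs3 and Ndufa9. For Ndufs1 the change with CR was -0.15 in muscle and 0.28 in neocortex, a difference of -0.43 (adjusted p = 0.00296).

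With resveratrol, 3 genes changed more positively and 7 more negatively in heart than in muscle (23.0% of all genes), 2 more negatively in heart than in neocortex (7.41%), and 4 more positively and 2 more negatively in muscle than in neocortex (15.0%). These shares of complex I genes were near or below those of all genes. Ndufaf1 differed by 0.69 between heart and muscle. Between the diets, Ndufaf1 differed by -0.57 in heart against muscle (1.90% of all genes were called) and by -0.50 in heart against neocortex, where Ndufaf6 differed by -1.03 (1.64%), and 0 genes differed between muscle and neocortex (limma; 1 at an unadjusted p under 0.05; 0.540% of all genes). With age, Ndufv1 differed by 0.41 between heart and neocortex (4.91%), and 0 genes differed between heart and muscle (8 at an unadjusted p under 0.05; 7.69% of all genes) or between muscle and neocortex (11; 0.459%).

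Other probe sets of the same genes did not always follow the one used. Of the 44 genes, 22 had a single probe set and 22 had more, up to 6. Ndufab1 showed the widest gap: with CR in muscle its brightest probe set (1428159_s_at) changed by 0.18, where 1428160_at rose by 2.28 (adjusted p = 2.68e-06), and with resveratrol by 0.02 and 2.27. In neocortex with resveratrol the brightest probe set fell by 0.20, a call lost without any of 5 arrays (adjusted p = 0.0992 without old resveratrol replicate 4), while 1428160_at rose by 0.81 (adjusted p = 0.00615). In heart 1428160_at fell by 0.71 with CR and fell by 0.81 with resveratrol. Ndufs4 and Ndufc2 differed in heart, where their brightest probe sets were not called: 1418117_at of Ndufs4 changed by -0.77 with age (adjusted p = 0.000694) and by 0.71 with CR (adjusted p = 0.000768), and 1416366_at of Ndufc2 by -0.31 with age and 0.58 with CR (adjusted p = 9.19e-06). In neocortex with CR, 1416834_x_at of Ndufb2 rose by 0.20 and 1442658_at, a dim probe set with a mean log2 signal of 5.88, fell by 1.2. Whether such probe sets report other transcripts of the gene was not tested.

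Genes around complex I were listed as other assembly factors, regulators of mitochondrial genes, and subunits of complexes II to V. Ecsit, known from human cells as a partner of Ndufaf1 in assembly, was lower with both diets in all 3 tissues, by -0.91 with CR and -1.04 with resveratrol in muscle (adjusted p = 0.000665 and 0.000375), by -0.53 and -0.59 in heart, and by -0.24 and -0.40 in neocortex. Of the 10 other assembly factors tested, the numbers called higher and lower with CR were 1 and 2 in muscle, 1 and 1 in heart, and 0 and 1 in neocortex, counts to be read against the shares of all genes called higher and lower with CR (17.5% and 13.6% in muscle, 7.94% and 14.1% in heart, 13.1% and 17.5% in neocortex). Among 9 regulators, Esrra, an orphan nuclear receptor of energy metabolism genes, rose in muscle by 1.16 with CR and 1.14 with resveratrol, and Gabpa, a subunit of nuclear respiratory factor 2, fell there by 0.57 (adjusted p = 0.00289) and 0.51 (adjusted p = 0.00953). In heart with CR, Tfam, which packages and transcribes mitochondrial DNA, fell by 0.48 (adjusted p = 0.00125) and Pprc1, a relative of Ppargc1a, by 1.71 (adjusted p = 0.000478). Ppargc1a, a coactivator of mitochondrial biogenesis, fell with age in muscle by 1.26 (adjusted p = 0.00573) and was higher there with CR than in old controls by 0.69 (adjusted p = 0.0193). Its change with resveratrol was -0.56 (adjusted p = 0.0702), and the diets differed by 1.25 (adjusted p = 0.009). In neocortex Ppargc1a also rose with CR, by 0.38 (limma, adjusted p = 0.0195), while Pprc1 fell by 0.40 (adjusted p = 0.0394). Nrf1 fell there with resveratrol by 0.47 (adjusted p = 0.0468). The numbers of regulators called higher and lower with CR were 2 and 1 in muscle, 0 and 2 in heart, and 1 and 1 in neocortex, beside the same shares of all genes. Of the subunits of complexes II to V, 15 of 49 were higher (30.6%) and 1 lower with CR in neocortex. In muscle 5 of 49 were higher (10.2%) and 2 lower, and in heart 3 of 50 were higher (6%) and 3 lower, both shares of rises below those of all genes. Their median change with CR in muscle was nonetheless close to that of the complex I genes. It was 0.21, with 40 of 49 above 0, against 0.22, with 38 of 44 above 0, for complex I genes and 0.10 for all genes.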

How the data were processed

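Expression was measured on 60 arrays, 1 per tissue sample. The authors turned the scans into linear signal intensities with GCOS 1.2, scaled to the same trimmed mean on each array, and deposited these intensity values. Here each array was rescaled to the 2% trimmed mean of its tissue, values below 1 were raised to 1, and signals were put on the log2 scale. A gene was represented by its brightest probe set with a single symbol, and genes reaching the 40th percentile of probe sets in a tissue were tested. For each tissue 1 model of its 4 groups was fitted in limma 3.58.1 in R 4.3.3 (lmFit and eBayes with trend), and p was adjusted by Benjamini and Hochberg over all genes of the tissue, with a threshold of 0.05. Array controls were compared by exact permutation (scipy 1.17.1). The fit was tested on simulated data. The number of arrays limits the precision. Nothing ties samples of different tissues to 1 mouse, and replicate numbers were not used as pairs. Members and gene lists were chosen with earlier results of these data known, and the motifs after the values were seen. Named are up to 6 largest rises and 6 largest falls of a comparison, the core subunits, Ndufa4 and Ndufa4l2, up to 3 largest differences between tissues, probe sets called in opposite directions and up to 4 genes of a role.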

Additional observations from a re-analysis of the deposited data

Results flagged for a closer look

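Single arrays stood apart from the other 4 of their group in 5 of 142 groups examined, where chance flags about 1 in 20 (7.1 here). In muscle, old control replicate 1 was the highest of its group for Ndufa5 (14.95), Ndufaf8 (12) and Ndufc2 (14.71), and old resveratrol replicate 2 for Ndufb7 (14.28). In heart, old CR replicate 2 had the highest mean signal over the complex I genes (14.04).

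The change of a gene differed between tissues past the test in the following cases, up to 3 for each comparison and pair of tissues. With CR, heart minus muscle was -0.99 for Ndufaf8, -0.79 for Ndufb6 and -0.74 for Ndufb2. Heart minus neocortex was -0.69 for Ndufa2, -0.59 for Ndufaf4 and -0.50 for Ndufv1, and muscle minus neocortex was 2.26 for Ndufa4l2, 0.69 for Ndufaf8 and 0.59 for Ndufc1. With resveratrol, heart minus muscle was -2.08 for Ndufa4l2, 0.69 for Ndufaf1 and -0.68 for Ndufaf8, heart minus neocortex was -0.52 for Ndufv1 and -0.45 for Ndufa2, and muscle minus neocortex was 2.57 for Ndufa4l2, 0.65 for Ndufaf8 and -0.41 for Ndufs1. The values of Ndufa4l2 carry a limit, since the model gives each gene 1 spread over all tissues and this gene spread widely in muscle. Its changes within muscle did not pass the limma test (adjusted p = 0.15 with CR and 0.131 with resveratrol). With age, heart minus neocortex was 0.41 for Ndufv1. Between CR and resveratrol, heart minus muscle was -0.57 for Ndufaf1, and heart minus neocortex was -1.03 for Ndufaf6 and -0.50 for Ndufaf1.

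Probe sets that name several genes were outside the gene tests, and a few of them passed the same test over all probe sets. The probe set of Ndufab1 and its pseudogene (1447919_x_at) changed by 0.30 with age in heart, 0.81 with CR and 0.54 with resveratrol in muscle, 0.35 with resveratrol in neocortex, and -0.28 between CR and resveratrol in neocortex. In heart with CR, that of Ndufs5 and its pseudogene changed by -0.25 and that of Ndufs6 and Ndufs6b by -0.29. The probe sets shared by Ndufb4, Ndufb4b and Ndufb4c changed by 0.23 (1428075_at) and 0.41 (1428076_s_at) with CR in neocortex, and by 0.24 and 0.38 between CR and resveratrol.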

How the results depend on the processing

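Of 78 calls of complex I genes, 45 were kept with each array left out and 23 under every alternative run. The 24 calls with CR in neocortex, the differences between tissues in a change (52 called) and the levels between tissues stayed within 1.5 times their count under every alternative that kept 1 probe set per gene; of those 24 calls, though, 8 were lost with quantile normalization and 5 with averaged probe sets. With every probe set on its own, which tests more rows, 42 were called with CR and 20 with resveratrol in neocortex (10 before), 11 between the diets in neocortex, 31 with CR and 16 with resveratrol in muscle, and 7 with age, 14 with CR and 10 with resveratrol in heart. Quantile normalization called 8 with CR, 8 with resveratrol and 1 between the diets in heart, and 14 with resveratrol in muscle. With no filter, 1 was called with age and 2 between the diets in heart, and 3 between the diets in neocortex; a filter at the 60th percentile gave 7 with CR in heart. Without the trend in eBayes the counts were 1 with age and 1 between the diets in heart and 0 between the diets in neocortex. Fitting only the 2 groups compared gave 1 with age and 10 with CR in heart, 14 with resveratrol in muscle and 2 between the diets in neocortex. Averaging the probe sets of each gene gave 1 with age in heart and 3 between the diets in neocortex, and there the difference of Ndufs4 between the diets turned to -0.0217 and the change of Ndufab1 with resveratrol to 0.105. Without the 2 arrays of a tissue chosen because they stood apart in earlier results of these data (heart: old control replicate 4 and young control replicate 1; muscle: old control replicate 1 and young control replicate 4), 1 was called with age and 7 with resveratrol in heart and 14 with resveratrol in muscle.

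The t-test of the study's methods, after Benjamini-Hochberg adjustment, called 0 on log2 and 0 on unlogged signals with age, 8 and 9 with CR and 2 and 0 between the diets in heart, 8 and 4 with CR in muscle, and 2 and 2 between the diets in neocortex. At an unadjusted p of 0.01 or less it called 1 and 1 with age, 8 and 9 with CR and 7 and 7 with resveratrol in heart, and 2 and 2 with age, 6 and 3 with CR and 2 and 2 between the diets in muscle.

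Leaving out each array in turn gave counts of 1 to 5 with age, 4 to 9 with CR, 3 to 6 with resveratrol and 0 to 5 between the diets in heart, 0 to 2 with age, 11 to 21 with CR and 3 to 11 with resveratrol in muscle, and 19 to 24 with CR, 6 to 12 with resveratrol and 0 to 7 between the diets in neocortex. Same-numbered arrays from different groups of a tissue did not deviate together (correlations of -0.20 to 0.17). Same-numbered arrays of different tissues were not compared, so pairing across tissues was not tested. With the replicate number as a block, 73 of the 78 calls were kept. In that setting 1 gene was called with age in heart and 3 between the diets in neocortex. Where a count moved, the cause was not tested.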

Other observations

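The genes of the mitochondrial ribosome, which makes the subunits of complex I that mitochondrial DNA encodes, were counted in the same way, 76 of them in each tissue. The shares of all genes called higher and lower stand in brackets. In neocortex 31 were higher and 2 lower with CR (13.1% and 17.5%). With resveratrol 8 were higher and 2 lower there (12.3% and 13.9%), and between CR and resveratrol 10 and 0 (3.66% and 5.62%). In muscle 19 were higher and 5 lower with CR (17.5% and 13.6%), and 9 and 5 with resveratrol (9.42% and 9.26%). In heart 10 were higher and 13 lower with CR (7.94% and 14.1%), and 16 and 3 with resveratrol (7.08% and 10.5%). Between CR and resveratrol 0 were higher and 9 lower in heart (1.43% and 2.57%), with a median difference of -0.17.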
